A study of Mus musculus with 20 samples.

Results

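The Toll-like receptors analysed here are the 10 genes Tlr1, Tlr2, Tlr3, Tlr4, Tlr5, Tlr6, Tlr7, Tlr8, Tlr9 and Tlr13, chosen by symbol from a table of 24054 genes. All 10 were in the table and all 10 were among the 16193 genes with enough counts to be tested. RNA was sequenced from whole lungs of female C57Bl6 mice in 20 libraries, 5 in each of 4 groups. KO-HDM lungs came from mice labelled ALOX15 knock out that received house dust mite (HDM) extract, an airborne allergen, through the nose every day for 14 days. KO-PBS lungs came from mice with the same genotype label and a saline label. WT-HDM lungs came from wild-type mice given the same HDM course, and WT-PBS lungs from wild-type mice with a saline label. The age of the mice, the dose of HDM and the kind of knockout allele are not given in the sources used here. Each library is called a biological replicate in the labels, and nothing there says whether cages or litters were shared.

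Alox15, the targeted gene, went against its label: it lay between 35.0 and 45.5 CPM (library-size scaled counts) in KO-HDM and 38.4 and 44.7 CPM in KO-PBS libraries, against 7.92 to 29.8 CPM in WT-HDM and 0.825 to 11.1 CPM in WT-PBS libraries. The genotype groups are therefore called libraries labelled KO and libraries labelled WT, and differences between them are given as differences between labels. The scaling used TMM factors. Total counts ranged over 17840138 to 21082770 in KO-HDM, 21120878 to 23305673 in KO-PBS, 12573113 to 20662632 in WT-HDM and 15601878 to 21715842 in WT-PBS. Surfactant and other epithelial marker genes of lung were abundant in every library, between 9574 and 42280 CPM summed over 7 markers.

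Toll-like receptors are transmembrane proteins of innate immunity that recognise molecules of microbes and, in some cases, of damaged cells. Tlr1, Tlr2, Tlr4, Tlr5 and Tlr6 act mainly at the cell surface on lipoproteins, lipopolysaccharide and flagellin, while Tlr3, Tlr7, Tlr8, Tlr9 and Tlr13 act in endosomes on nucleic acids. They signal through adaptors that carry a TIR domain, chiefly Myd88 and Ticam1, to NF-kB and interferon regulatory factors. In the lung they are found on macrophages, dendritic cells, lymphocytes and epithelium, and Tlr4 on airway epithelium is known to take part in the mouse response to inhaled HDM.

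The coding sequences of Tlr1 and Tlr6 are shown because their likeness bears on how counts of these genes were made. Both genes lie on chromosome 5. A stretch of 150 bases from each is printed from the coding sequences of GENCODE vM21 (mouse build GRCm38) of 1 transcript each, bases 1448 to 1597 for Tlr1 and bases 1487 to 1636 for Tlr6. The single base that differs is in capitals.
Tlr1: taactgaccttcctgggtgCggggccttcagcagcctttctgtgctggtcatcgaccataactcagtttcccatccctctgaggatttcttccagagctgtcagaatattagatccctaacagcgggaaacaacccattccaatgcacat
Tlr6: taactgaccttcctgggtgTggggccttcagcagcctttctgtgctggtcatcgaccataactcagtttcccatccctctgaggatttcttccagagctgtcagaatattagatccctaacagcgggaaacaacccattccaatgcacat
Of the 2339 windows of 50 bases in the Tlr1 coding sequence, 454 (19.4%) also occur in that of Tlr6, none occurs in that of Tlr2, and the longest run shared by Tlr1 and Tlr6 is 229 bases. The deposited expected counts were whole numbers for the 8 other receptors in every library and fractional for Tlr1 and Tlr6, whose sum was whole in all 20 libraries (within 0.005). Tlr6 took 25.2% ± 3.71 of that sum in KO-HDM, 34.8% ± 8.20 in KO-PBS, 17.0% ± 5.55 in WT-HDM and 21.6% ± 6.42 in WT-PBS (SD, n = 5 each). The split of reads between Tlr1 and Tlr6 is therefore an estimate, and their values are also given as 1 feature below.

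Upstream sequence is shown for Tlr2, Tlr9 and Tlr5, which had different patterns of expression over the groups. Each sequence holds the 250 bases before a transcription start (RefSeq, GRCm38.p6), read along the gene's own strand. Capitals mark matches, on either strand, to motifs that were searched for: the kB motif of NF-kB, the octamer ATGCAAAT bound by Oct factors of B cells, and GAGGAA, a core of sites for the myeloid and B cell factor PU.1.
Tlr2, chr3:83841609-83841858, minus strand: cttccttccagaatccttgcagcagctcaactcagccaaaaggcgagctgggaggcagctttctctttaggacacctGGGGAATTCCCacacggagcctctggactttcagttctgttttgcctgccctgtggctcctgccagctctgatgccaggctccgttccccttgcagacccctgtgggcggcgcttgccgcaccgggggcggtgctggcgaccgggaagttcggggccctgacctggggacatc
Tlr9, chr9:106222348-106222597, plus strand: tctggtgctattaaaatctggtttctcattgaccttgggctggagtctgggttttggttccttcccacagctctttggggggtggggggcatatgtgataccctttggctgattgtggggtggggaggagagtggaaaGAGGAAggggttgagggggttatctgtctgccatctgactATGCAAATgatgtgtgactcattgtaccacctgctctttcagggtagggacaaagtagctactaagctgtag
Tlr5, chr1:182954538-182954787, plus strand: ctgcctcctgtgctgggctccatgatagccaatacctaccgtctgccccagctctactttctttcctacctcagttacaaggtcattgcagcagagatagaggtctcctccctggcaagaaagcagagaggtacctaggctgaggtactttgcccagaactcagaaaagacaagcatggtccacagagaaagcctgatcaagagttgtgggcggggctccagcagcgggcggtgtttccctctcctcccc
The Tlr2 window holds 2 kB matches that overlap almost fully, beginning 173 and 172 bases before the start. The Tlr9 window holds an octamer 72 bases and a GAGGAA 112 bases before the start, and the Tlr5 window held no match to these motifs. Of 32851 windows of this length over all genes, 3.9% hold a kB match, 1.6% the octamer and 23.3% GAGGAA. Windows were at hand for 8 of the 10 receptors, Tlr4 and Tlr7 having none in the table used. These 8 had 10 windows, with 2 starts each for Tlr1 and Tlr6. The other kB match was in Tlr3, and GAGGAA was also found for Tlr1 (at 1 of its 2 starts), Tlr8 and Tlr13. The core of the interferon-stimulated response element was found for Tlr6 only among the 8, at 1 of its 2 starts, and in 2.98% of all windows. A match is a string of letters and was not tested as a binding site.

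All 10 receptors were detected in every library, and per length of transcript Tlr2 and Tlr4 stood among the 3 highest in each group. On the scale of CPM per kilobase of the longest coding transcript, KO-HDM lungs had 26.1 ± 6.81 for Tlr2 and 19.9 ± 2.12 for Tlr4, ahead of 14.7 ± 4.19 for Tlr13, 14.5 ± 2.35 for Tlr7 and 13.9 ± 2.16 for Tlr8 (SD, n = 5). Tlr13, Tlr7 and Tlr8 differ from each other there by less than their spread. Lower in that group came Tlr3 at 9.45 ± 1.42, Tlr1 at 6.89 ± 1.48, Tlr9 at 6.59 ± 0.785, Tlr5 at 2.34 ± 0.247 and Tlr6 at 1.89 ± 0.382 CPM per kilobase, with Tlr1 and Tlr9 within their spread of each other.

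In KO-PBS lungs the order of these levels began with Tlr2 at 8.66 ± 0.694, Tlr3 at 8.02 ± 0.91 and Tlr4 at 7.83 ± 0.907 CPM per kilobase, which did not differ beyond their spread. Tlr13 (5.71 ± 0.227), Tlr5 (4.81 ± 0.351), Tlr7 (4.50 ± 0.5), Tlr8 (3.76 ± 0.383), Tlr9 (2.81 ± 0.739), Tlr1 (1.97 ± 0.885) and Tlr6 (0.803 ± 0.141) followed. The double-stranded RNA receptor Tlr3 was thus number 6 of 10 per length in KO-HDM lungs and number 2 in KO-PBS lungs, and the flagellin receptor Tlr5 was number 9 in KO-HDM lungs and number 5 in KO-PBS lungs.

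In WT-HDM lungs Tlr4 (14.6 ± 2.54 CPM per kilobase) and Tlr2 (13.5 ± 2.95) led and did not differ beyond their spread, followed by Tlr7 (10.2 ± 1.89), Tlr8 (10.03 ± 2.52), Tlr13 (8.70 ± 2), Tlr1 (7.33 ± 2.33), Tlr3 (7.15 ± 1.25), Tlr9 (6.82 ± 2.28), Tlr5 (2.60 ± 0.475) and Tlr6 (1.14 ± 0.229). In WT-PBS lungs Tlr4 (9.04 ± 2.42), Tlr2 (8.38 ± 1.26) and Tlr3 (8.34 ± 1.68) led and overlapped. Between them and Tlr6 (0.793 ± 0.149) stood Tlr7, Tlr8, Tlr13, Tlr9, Tlr1 and Tlr5, from 5.29 ± 1.5 to 4.16 ± 0.399 CPM per kilobase, whose neighbours in order differed by less than their spread. The transcript that the authors' annotation used is not given in the sources used here, so the order between genes depends on the lengths taken from GENCODE.

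**Figure D1:**
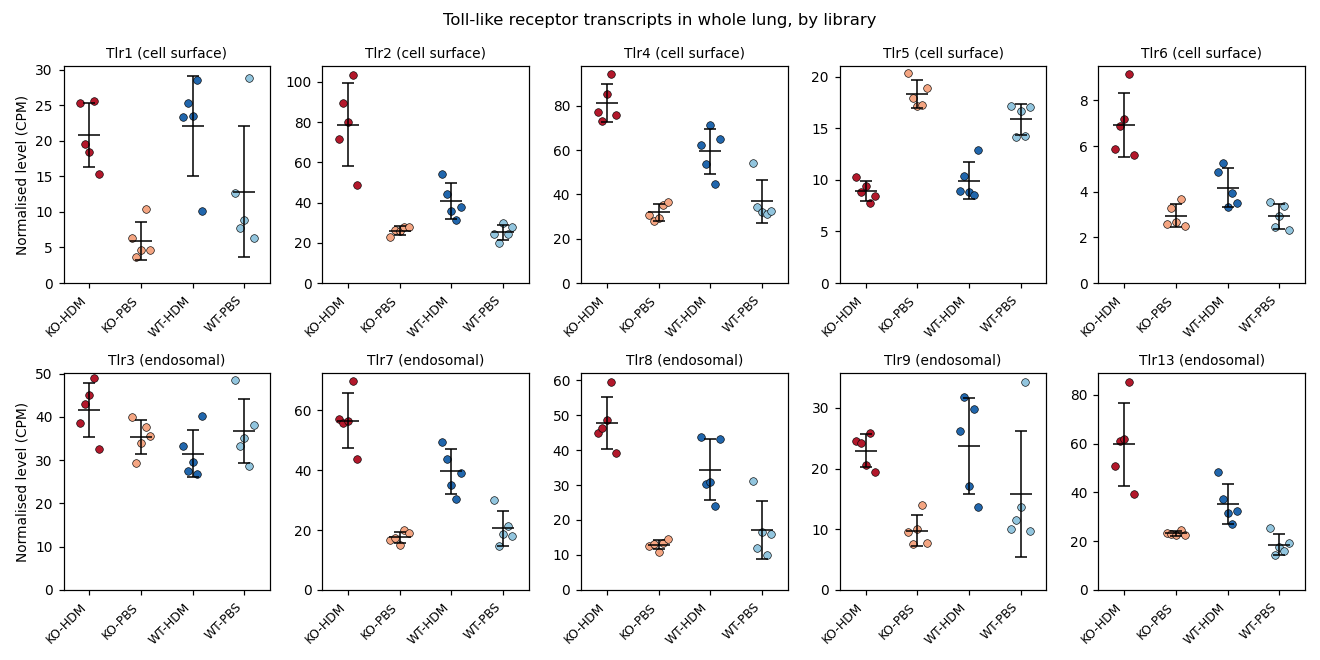
CPM (vertical, linear from 0) of the 10 receptors in each of the 20 libraries, with KO-HDM left of KO-PBS and WT-HDM left of WT-PBS; points are libraries, horizontal lines are group means and bars are SD (n = 5). Tlr5 is the receptor whose HDM libraries all lie below the saline libraries in both genotypes, and Tlr1 and Tlr9 each have 1 WT-PBS library above the other 4, at 28.9 and 34.3 CPM.

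HDM exposure in mice labelled KO was accompanied by higher RNA for 8 of the 10 receptors and lower RNA for Tlr5. The receptors of lipoproteins and lipopolysaccharide (Tlr1, Tlr2, Tlr4, Tlr6) rose by 1.23 to 1.80 on the log2 scale, and the endosomal Tlr7, Tlr8, Tlr9 and Tlr13 by 1.23 to 1.88. In this comparison 51.9% of all tested genes were called, 26.2% higher and 25.7% lower. The KO-HDM and KO-PBS libraries did not overlap for 9 of 10 receptors, and the same held for 43.9% of all tested genes. The median log2 fold change was 1.36 over the 10 receptors and 0.02 over all tested genes. A called gene has a Benjamini-Hochberg adjusted p under 0.05 in edgeR's quasi-likelihood test over all 16193 genes, and each fold change is followed by its standard error.

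Tlr2, which pairs with Tlr1 or Tlr6 to sense bacterial lipoproteins, measured 71.6, 89.5, 80.2, 103 and 48.7 CPM in KO-HDM libraries, against 22.8, 26.2, 25.7, 28.0 and 27.8 CPM in KO-PBS libraries. Every KO-HDM library lay above every KO-PBS library. Tlr2 rose by a log2 fold change of 1.59 ± 0.17 (edgeR adjusted p = 5.49e-07). Tlr4, the lipopolysaccharide receptor, measured 77.3, 73.2, 85.5, 94.4 and 76.0 CPM in KO-HDM, against 30.8, 27.8, 29.4, 35.2 and 36.4 CPM in KO-PBS. These groups were also apart, and the libraries within each lay close together. Its log2 fold change was 1.35 ± 0.15 (edgeR adjusted p = 7.59e-07).

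Tlr1 and Tlr6 are the partners of Tlr2. Tlr1 measured 25.4, 19.5, 18.4, 25.6 and 15.4 CPM in KO-HDM, against 6.37, 3.71, 4.62, 10.4 and 4.70 CPM in KO-PBS (log2 fold change 1.80 ± 0.39, edgeR adjusted p = 0.000753). Tlr6 measured 5.87, 6.87, 7.20, 9.15 and 5.60 CPM in KO-HDM, against 2.58, 3.29, 2.68, 3.70 and 2.51 CPM in KO-PBS (1.23 ± 0.18, edgeR adjusted p = 1.37e-05). Neither gene's groups overlapped. With their counts added and fitted as 1 feature, the log2 fold change was 1.64 (edgeR adjusted p = 0.000337).

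Tlr5, the flagellin receptor, moved the other way. It measured 10.2, 8.87, 9.39, 7.77 and 8.41 CPM in KO-HDM, against 20.4, 18.0, 17.2, 17.3 and 19.0 CPM in KO-PBS, and the groups were apart. Tlr5 fell by 1.04 ± 0.11 on the log2 scale (edgeR adjusted p = 5.82e-07). Summed markers of epithelium and endothelium were also lower in the HDM libraries. The 7 epithelial markers, 6 of them called lower, summed to 9574 to 15840 CPM in KO-HDM, against 29140 to 42280 CPM in KO-PBS. Scgb1a1 had the largest part in that sum's drop, averaging 5549 CPM in KO-HDM and 19820 CPM in KO-PBS. The 7 endothelial markers, all called lower, summed to 1196 to 2344 CPM in KO-HDM, against 4014 to 4233 CPM in KO-PBS. None of these markers was at 0, and their part in the lower Tlr5 was not tested. In whole lung, fewer cells of a type and less RNA per cell cannot be told apart.

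Among the endosomal receptors, Tlr7, which senses single-stranded RNA, measured 57.0, 55.7, 56.6, 69.7 and 43.8 CPM in KO-HDM, against 16.8, 17.2, 14.9, 19.9 and 18.9 CPM in KO-PBS (log2 fold change 1.69 ± 0.17, edgeR adjusted p = 2.41e-07). Tlr8, its close relative, measured 44.8, 46.2, 48.5, 59.4 and 39.2 CPM in KO-HDM, against 12.6, 13.2, 10.9, 13.4 and 14.5 CPM in KO-PBS (1.88 ± 0.24, edgeR adjusted p = 4.02e-06). Both were apart between groups, and Tlr8 had the highest fold change of the 10.

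Tlr9, the receptor of unmethylated CpG DNA, measured 24.6, 24.2, 20.6, 25.8 and 19.5 CPM in KO-HDM, against 9.57, 7.56, 10.03, 14.0 and 7.80 CPM in KO-PBS (log2 fold change 1.23 ± 0.31, edgeR adjusted p = 0.00299). Tlr13, which recognises bacterial ribosomal RNA in mice, measured 51.0, 60.9, 61.9, 85.3 and 39.2 CPM in KO-HDM, against 23.2, 22.9, 22.4, 24.7 and 22.7 CPM in KO-PBS (1.36 ± 0.18, edgeR adjusted p = 6.86e-06). Neither gene's groups overlapped. Tlr3 was the exception among the 10: it measured 38.6, 43.0, 44.99, 49.0 and 32.6 CPM in KO-HDM, against 40.0, 29.4, 33.9, 37.7 and 35.7 CPM in KO-PBS. The groups overlapped and Tlr3 was not called, with a log2 fold change of 0.24 ± 0.14 (edgeR adjusted p = 0.165, 95% interval -0.06 to 0.53).

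Markers of macrophages and monocytes moved with these receptors. All 10 of 10 such markers were called higher, and their sum was 867 to 1633 CPM in KO-HDM, against 355 to 431 CPM in KO-PBS. Alveolar macrophage markers did not move as a list, with 2 of 8 called higher and 3 lower. Their sum was 3412 to 6784 CPM in KO-HDM, against 433 to 832 CPM in KO-PBS. Nearly all of the KO-HDM sum was Chil3, which averaged 4725 CPM in KO-HDM and 415 CPM in KO-PBS. All 5 erythroid markers were called lower, with sums of 2191 to 4060 CPM in KO-HDM and 8056 to 16610 CPM in KO-PBS. Conventional dendritic cell markers had 3 of 7 called higher and 2 lower, and sums of 476 to 594 CPM in KO-HDM and 174 to 193 CPM in KO-PBS. Most of the KO-HDM sum came from Itgax, which averaged 420 CPM in KO-HDM and 79.1 CPM in KO-PBS. All 5 hepatocyte markers were called higher, with sums of 26.2 to 96.4 CPM in KO-HDM and at most 1.41 CPM in KO-PBS. The part of these cell types in the receptor values was not tested. All 9 called receptors stayed called without any single library of the 20.

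HDM exposure in mice labelled WT was accompanied by a rise of 6 receptors (Tlr2, Tlr4, Tlr6, Tlr7, Tlr8 and Tlr13) and a fall of Tlr5. Tlr1, Tlr3 and Tlr9 were not called. Of all tested genes, 30.1% were called, 13.6% higher and 16.5% lower. The HDM and saline libraries did not overlap for 4 of 10 receptors (Tlr2, Tlr5, Tlr7 and Tlr13), and the same held for 11.6% of all tested genes. The median log2 fold change was 0.69 over the 10 receptors and -0.02 over all tested genes.

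Tlr2 measured 54.1, 44.2, 35.7, 31.1 and 37.7 CPM in WT-HDM libraries, against 24.1, 20.001, 29.8, 24.4 and 27.9 CPM in WT-PBS libraries (log2 fold change 0.68 ± 0.17, edgeR adjusted p = 0.005001). Tlr4 measured 62.2, 53.6, 71.4, 44.8 and 64.9 CPM in WT-HDM, against 54.4, 34.2, 32.0, 31.2 and 32.4 CPM in WT-PBS (0.69 ± 0.15, edgeR adjusted p = 0.00182). Both rose, with no overlap for Tlr2, while for Tlr4 the highest WT-PBS library lay above the lowest WT-HDM libraries. Without 3 libraries, WT-PBS replicates 2 and 4 and WT-HDM replicate 2, Tlr2 was at 0.54 and no longer called (edgeR adjusted p = 0.0694). Tlr6 was also lost in that fit, while Tlr1 and Tlr9 became called, at 1.21 and 0.96 (edgeR adjusted p = 0.0243 and 0.0099). These 3 libraries were chosen after seeing the data, for high lymphocyte, adipose or muscle markers. WT-HDM replicate 4 and KO-HDM replicate 5 were kept, though their adipocyte markers summed to 763 and 710 CPM.

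Tlr5 measured 8.90, 10.4, 8.86, 8.58 and 12.9 CPM in WT-HDM, against 17.2, 14.1, 16.7, 14.3 and 17.1 CPM in WT-PBS, with no overlap. Tlr5 fell by 0.68 ± 0.11 on the log2 scale (edgeR adjusted p = 0.000215). The 7 endothelial markers were all called lower here too, with sums of 1559 to 2852 CPM in WT-HDM and 2925 to 4434 CPM in WT-PBS. Of the 7 epithelial markers 1 was called lower, Scgb1a1, which averaged 5857 CPM in WT-HDM and 15430 CPM in WT-PBS. Sums over the 7 epithelial markers, with Scgb1a1 among them, were 10100 to 23020 CPM in WT-HDM and 22820 to 33480 CPM in WT-PBS. Their part in the Tlr5 value was not tested.

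Tlr7 measured 49.4, 43.8, 35.2, 30.5 and 39.2 CPM in WT-HDM, against 30.1, 14.7, 18.8, 21.3 and 18.0 CPM in WT-PBS (log2 fold change 0.94 ± 0.17, edgeR adjusted p = 0.000363). Tlr13 measured 48.3, 37.3, 31.6, 27.0 and 32.3 CPM in WT-HDM, against 25.4, 14.4, 17.6, 16.01 and 19.1 CPM in WT-PBS (0.93 ± 0.18, edgeR adjusted p = 0.000959). Both genes' groups were apart, if narrowly, since the highest WT-PBS library came close to the lowest WT-HDM library. Tlr8 measured 43.6, 30.3, 30.8, 24.1 and 43.2 CPM in WT-HDM, against 31.2, 11.9, 16.6, 9.94 and 15.98 CPM in WT-PBS, and rose by 1.01 ± 0.24 on the log2 scale (edgeR adjusted p = 0.00343). Its groups overlapped through WT-PBS replicate 1, the library that was also highest for Tlr4, Tlr7 and Tlr13 in its group.

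Tlr6 measured 4.88, 5.25, 3.34, 3.93 and 3.52 CPM in WT-HDM, against 3.55, 2.44, 2.92, 3.36 and 2.31 CPM in WT-PBS. Tlr6 rose by 0.52 ± 0.18 on the log2 scale (edgeR adjusted p = 0.0332), with overlap between groups. This call rested on single libraries: it was lost without WT-PBS replicate 2 (adjusted p = 0.0692) or 5 (0.0698) and without WT-HDM replicate 1 (0.0632) or 2 (0.0749). Tlr6 and Tlr1 as 1 feature gave a log2 fold change of 0.74 that was not called (edgeR adjusted p = 0.0848).

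Tlr1 and Tlr9 each had a WT-PBS library that lay with the HDM libraries. Tlr1 measured 23.3, 25.3, 23.5, 28.5 and 10.1 CPM in WT-HDM, against 12.6, 7.72, 8.83, 28.9 and 6.31 CPM in WT-PBS (log2 fold change 0.78 ± 0.37, edgeR adjusted p = 0.125). Tlr9 measured 26.1, 31.8, 17.2, 29.8 and 13.7 CPM in WT-HDM, against 9.96, 11.6, 13.6, 34.3 and 9.75 CPM in WT-PBS (0.58 ± 0.31, edgeR adjusted p = 0.167). The high library of both genes was WT-PBS replicate 4 and the low WT-HDM library was replicate 5. Without WT-PBS replicate 4 both were called, Tlr1 at 1.32 (edgeR adjusted p = 0.00322) and Tlr9 at 1.08 (edgeR adjusted p = 0.00131). Without WT-HDM replicate 5 Tlr1 was called at 1.00 (edgeR adjusted p = 0.0426).

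B cell markers set the same WT libraries apart as Tlr1, and WT-PBS replicate 4 apart as Tlr9. For Tlr9, WT-HDM replicate 5 was lowest in its group (13.7 CPM) but near replicate 3 (17.2 CPM), whose B cell sum was 419 CPM. Of 6 B cell markers, 2 were called higher for HDM in WT, 3 in labelled KO and 0 between the labels under either treatment. The sum over 6 B cell markers was 182 CPM in WT-HDM replicate 5 and 419 to 641 CPM in the other WT-HDM libraries, and it was 613 CPM in WT-PBS replicate 4 and 126 to 174 CPM in the other WT-PBS libraries. It lay between 177 and 465 CPM in KO-HDM and between 73.0 and 190 CPM in KO-PBS libraries. Within KO-HDM the order differed: replicate 4 had the highest Tlr1 and Tlr9 at a B cell sum of 227 CPM, and replicate 5 the lowest Tlr1 and Tlr9 at 305 CPM. Every marker was detected, and none of the 6 markers was at 0 in a group. B cells are known to express both receptors. The part of B cell content in the Tlr1 and Tlr9 values was not tested.

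**Figure D2:**
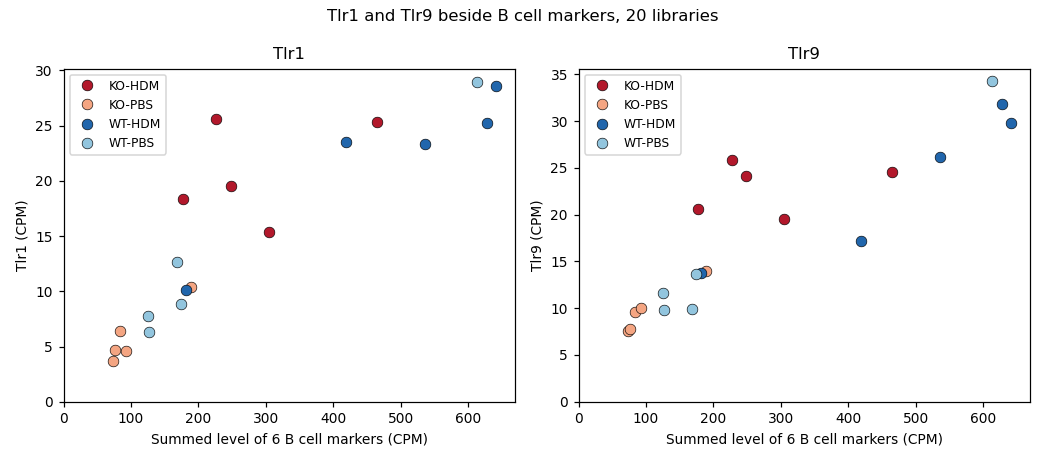
Tlr1 and Tlr9 (CPM, vertical) against the summed CPM of 6 B cell markers (horizontal) in the 20 libraries, coloured by group. WT-PBS replicate 4, at 613 CPM of B cell markers, lies with the WT-HDM libraries, and WT-HDM replicate 5, at 182 CPM, lies near the other WT-PBS libraries.

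Tlr3 measured 33.3, 27.6, 29.6, 26.8 and 40.3 CPM in WT-HDM, against 48.5, 33.2, 35.1, 28.7 and 38.2 CPM in WT-PBS. The groups overlapped and Tlr3 was not called, at -0.22 ± 0.14 (edgeR adjusted p = 0.253, 95% interval -0.52 to 0.08). Of 10 macrophage and monocyte markers 6 were called higher in WT-HDM, with sums of 476 to 781 CPM in WT-HDM and 347 to 446 CPM in WT-PBS. Alveolar macrophage markers had 2 of 8 called higher and 2 lower, and sums of 4871 to 11370 CPM in WT-HDM and 443 to 688 CPM in WT-PBS. Nearly all of the WT-HDM sum was Chil3, which averaged 6697 CPM in WT-HDM and 386 CPM in WT-PBS. Conventional dendritic cell markers had 3 of 7 called higher and 0 lower, and sums of 383 to 653 CPM in WT-HDM and 161 to 221 CPM in WT-PBS. Most of the WT-HDM sum came from Itgax, which averaged 380 CPM in WT-HDM and 68.0 CPM in WT-PBS. All 5 erythroid markers were called lower. The part of these cell types in the 6 receptors that rose was not tested.

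**Figure D3:**
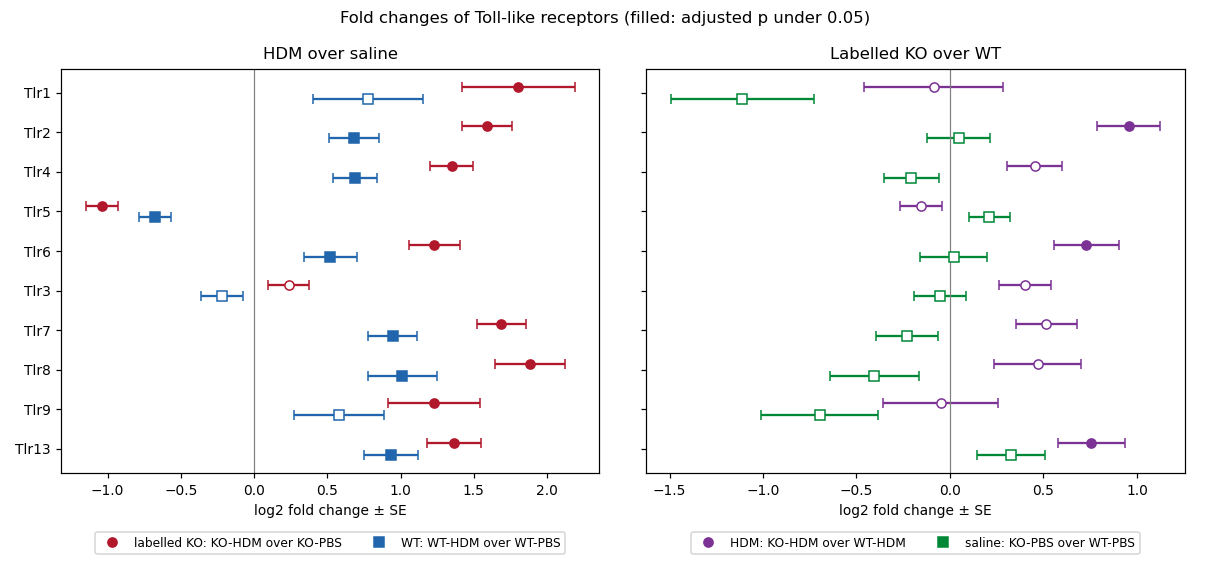
Log2 fold change ± SE of the 10 receptors for HDM over saline (left, libraries labelled KO above WT within each row) and for labelled KO over WT (right, HDM above saline); filled symbols are called at an adjusted p under 0.05. For HDM over saline, Tlr5 is called lower at -1.04 in libraries labelled KO and -0.68 in WT, and Tlr3 is not called in either.

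The genotype labels were compared under each treatment. Under HDM, 3 of 10 receptors were called higher in libraries labelled KO (Tlr2, Tlr6 and Tlr13) and none lower, with 6.67% of all tested genes called, 4.79% higher and 1.88% lower. Libraries of the 2 labels did not overlap for 2 of 10 receptors (Tlr4 and Tlr6), and the same held for 7.01% of all tested genes. The median log2 fold change was 0.46 over the 10 receptors and -0.01 over all genes.

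Tlr2 was higher in KO-HDM, at 78.7 ± 20.5 CPM in KO-HDM and 40.6 ± 8.90 CPM in WT-HDM (SD, n = 5 each), a log2 fold change of 0.96 ± 0.17 (edgeR adjusted p = 0.00174). A single pair of libraries overlapped, since the lowest KO-HDM library (48.7 CPM) lay under the highest WT-HDM library (54.1 CPM). Tlr6 averaged 6.94 ± 1.40 CPM in KO-HDM and 4.18 ± 0.842 CPM in WT-HDM (0.73 ± 0.18, edgeR adjusted p = 0.0156), with no overlap. Tlr13 averaged 59.7 ± 17.0 CPM in KO-HDM and 35.3 ± 8.13 CPM in WT-HDM (0.76 ± 0.18, edgeR adjusted p = 0.0153), with overlap. KO-HDM replicate 4 was the highest library for all 3, and without it the Tlr6 call (0.60, edgeR adjusted p = 0.0615) and the Tlr13 call (0.58, edgeR adjusted p = 0.0502) were lost. Tlr1 and Tlr6 as 1 feature gave 0.08 (edgeR adjusted p = 0.916).

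Tlr4 averaged 81.3 ± 8.64 CPM in KO-HDM and 59.4 ± 10.4 CPM in WT-HDM, and its groups were apart, but it was not called (log2 fold change 0.45 ± 0.15, edgeR adjusted p = 0.0707). Tlr7 averaged 56.6 ± 9.16 CPM in KO-HDM and 39.6 ± 7.37 CPM in WT-HDM (0.51 ± 0.16, edgeR adjusted p = 0.0662). DESeq2 and limma voom each called both Tlr4 and Tlr7, for 5 receptors in all. For the other 5 the log2 fold changes were 0.40 for Tlr3 (95% interval 0.10 to 0.70), 0.47 for Tlr8 (-0.02 to 0.96), -0.05 for Tlr9 (-0.70 to 0.60), -0.09 for Tlr1 (-0.87 to 0.70) and -0.15 for Tlr5 (-0.39 to 0.09), with edgeR adjusted p-values of 0.0941 to 0.945. Tlr3 was called without WT-HDM replicate 5 (0.50, edgeR adjusted p = 0.0340) and without KO-HDM replicate 5 (0.48, edgeR adjusted p = 0.0417). Tlr1 and Tlr9 had wide intervals, which include a 1.5-fold difference in either direction.

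Macrophage and monocyte markers again moved with the comparison: 8 of 10 were called higher in KO-HDM than in WT-HDM, and 4 of the 6 neutrophil markers in the table, with neutrophil sums of 127 to 318 CPM in KO-HDM and 64.5 to 161 CPM in WT-HDM. Hepatocyte markers summed to 26.2 to 96.4 CPM in KO-HDM and to at most 1.41 CPM in any library of the other groups. All 5 erythroid markers were called higher in KO-HDM than in WT-HDM, where they summed to 1007 to 1615 CPM. The part of any of these in the receptor values was not tested.

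Under saline, none of the 10 receptors was called between libraries labelled KO and WT, none was apart between groups, and 0.908% of all tested genes were called while 3.06% did not overlap. At an unadjusted p under 0.05 there were 2 receptors, Tlr1 and Tlr9, and 15.7% of all genes. DESeq2 and limma voom also called 0. Tlr1 averaged 5.97 ± 2.68 CPM in KO-PBS and 12.9 ± 9.26 CPM in WT-PBS (log2 fold change -1.11 ± 0.38, edgeR adjusted p = 0.201), and Tlr9 averaged 9.78 ± 2.57 CPM in KO-PBS and 15.8 ± 10.4 CPM in WT-PBS (-0.70 ± 0.31, edgeR adjusted p = 0.294). Both values rest on WT-PBS replicate 4: without it they were -0.57 and -0.20. All 5 erythroid markers were called higher in KO-PBS, whose sums are given above, than in WT-PBS (2098 to 5064 CPM). Of the 6 neutrophil markers 1 was called higher in KO-PBS. Neutrophil sums did not overlap under saline either, at 151 to 222 CPM in KO-PBS and 88.85 to 140 CPM in WT-PBS, while they overlapped under HDM. The part of these markers in the receptor values was not tested. The other 8 receptors lay between -0.40 for Tlr8 and 0.33 for Tlr13.

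The interaction asks whether the HDM difference itself differed between the genotype labels. None of the 10 receptors was called by edgeR, with 1.24% of all tested genes called (200 genes), and 7 of 10 had an unadjusted p under 0.05, as had 2583 of all 16193 genes. These 7 were Tlr2, Tlr3, Tlr4, Tlr5, Tlr6, Tlr7 and Tlr8. The estimate for Tlr2 was 0.91 ± 0.24 (edgeR adjusted p = 0.0668), meaning a larger log2 HDM difference in libraries labelled KO. DESeq2 called Tlr2 (adjusted p = 0.0142), as did edgeR without WT-HDM replicate 1 (adjusted p = 0.0329) or without KO-HDM replicate 5 (adjusted p = 0.0144). The others with an unadjusted p under 0.05 had estimates of 0.66 for Tlr4, 0.74 for Tlr7, 0.71 for Tlr6, 0.87 for Tlr8, 0.46 for Tlr3 and -0.36 for Tlr5, with edgeR adjusted p-values of 0.121 to 0.265. The counts of 9 called receptors in libraries labelled KO and 7 in WT are not a test of that difference.

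Genes that act with the receptors were counted from lists. The counts that follow are to be read beside the shares of all tested genes called for HDM. These were 51.9% in labelled KO, 26.2% higher and 25.7% lower, and 30.1% in WT, 13.6% higher and 16.5% lower. In libraries labelled KO the median log2 fold change for HDM was 1.30 for co-receptors, 0.16 for chaperones, 0.28 for adaptors, 0.16 for kinases and ubiquitin enzymes, 0.28 for transcription factors, 0.58 for inhibitors, 1.66 for targets and 0.85 for other pattern recognition receptors, beside 0.02 for all tested genes. In WT these medians were 0.95, 0.15, 0.15, 0.06, -0.01, 0.19, 1.39 and 0.32 in the same order of lists, beside -0.02. Among 6 co-receptors, HDM was accompanied by a rise of 4 and a fall of 1 in libraries labelled KO and by a rise of 5 in WT. Cd14, which hands lipopolysaccharide to Tlr4, averaged 77.4 CPM in KO-HDM and 27.1 CPM in KO-PBS (log2 fold change 1.52, edgeR adjusted p = 1.82e-06), and 54.5 CPM in WT-HDM and 25.1 CPM in WT-PBS (1.12, edgeR adjusted p = 0.000171). Ly96, the MD-2 subunit of the Tlr4 complex, rose by 1.43 and 1.06 in labelled KO and WT, and Ly86 and Cd180, a receptor pair of B cells, rose in both. Cd36, a scavenger receptor that cooperates with Tlr2, fell by 0.62 in labelled KO and was at -0.32 in WT (edgeR adjusted p = 0.0549). Lbp, which binds lipopolysaccharide in serum, was at 0.10 in labelled KO and rose by 0.47 in WT.

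Of 6 chaperones and trafficking factors, 3 rose in labelled KO and 2 in WT, and none fell. The shares called in either direction were near those of all tested genes, and the shares called higher were above them. Unc93b1, which carries nucleic acid receptors to endosomes, averaged 124.5 CPM in KO-HDM and 60.1 CPM in KO-PBS (log2 fold change 1.05, edgeR adjusted p = 1.02e-05), and 99.9 CPM in WT-HDM and 66.7 CPM in WT-PBS (0.58, edgeR adjusted p = 0.00557). Hsp90b1, the folding chaperone gp96 of these receptors, rose by 1.06 in labelled KO and 0.60 in WT. Of the others, Ap3b1 rose by 0.22 in labelled KO, and Cnpy3, Cnpy4 and Slc15a4 were not called.

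Of 6 adaptors, 3 rose in labelled KO and 1 in WT, and none fell. The share called in either direction was near that of all tested genes in labelled KO and below it in WT. The share called higher was above that of all tested genes in labelled KO and near it in WT. Ticam2, the bridging adaptor of Tlr4, averaged 22.7 CPM in KO-HDM and 6.10 CPM in KO-PBS (log2 fold change 1.89, edgeR adjusted p = 1.55e-08), and 15.2 CPM in WT-HDM and 6.85 CPM in WT-PBS (1.14, edgeR adjusted p = 1.44e-05). Tirap and Pik3ap1 rose by 0.40 and 0.61 in labelled KO and were at 0.12 and 0.21 in WT, and neither was called for the interaction. Myd88, the adaptor of all these receptors but Tlr3, was at -0.05 in labelled KO (38.7 CPM in KO-HDM and 40.0 CPM in KO-PBS, edgeR adjusted p = 0.698) and at -0.03 in WT (37.0 CPM in WT-HDM and 37.6 CPM in WT-PBS, edgeR adjusted p = 0.864). Ticam1 and Sarm1 were not called in either.

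Downstream, 8 of 17 kinases and ubiquitin enzymes rose and 1 fell in labelled KO, a share called near that of all tested genes, against 5 and 2 in WT. Of 8 transcription factors, 3 rose and 2 fell in labelled KO, against 2 and 1 in WT. Irf5 rose by 0.99 in labelled KO and 0.70 in WT, and Rela fell by 0.53 in labelled KO and 0.37 in WT. Of 9 inhibitors of the pathway, 5 rose and 2 fell in labelled KO, against 3 and 0 in WT, where the share called was near that of all genes. Irak3, a kinase-like brake on Myd88 signalling, rose by 0.76 in labelled KO, was at 0.16 in WT, and was the gene of these lists called for the interaction (0.60 ± 0.13, edgeR adjusted p = 0.0257).

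Of the 15 tested target genes, 12 rose in labelled KO and 10 in WT, and none fell. Saa3, an acute-phase protein, averaged 168 CPM in KO-HDM and 4.36 CPM in KO-PBS (log2 fold change 5.27), and 37.3 CPM in WT-HDM and 1.18 CPM in WT-PBS (4.97). The chemokine Ccl3 rose by 3.04 and 2.68 in labelled KO and WT. Il1b was not called, at 0.04 in labelled KO (edgeR adjusted p = 0.922) and 0.56 in WT (edgeR adjusted p = 0.124). Many of these genes also respond to other receptors. Of 10 other pattern recognition receptors, 8 rose and 1 fell in labelled KO, against 3 and 1 in WT. Clec7a, the fungal glucan receptor dectin-1, averaged 340 CPM in KO-HDM and 41.4 CPM in KO-PBS (3.04), and 243 CPM in WT-HDM and 40.4 CPM in WT-PBS (2.59). The profilin receptors Tlr11 and Tlr12, at a few CPM, rose by 1.36 and 0.81 in labelled KO and were at 0.40 and 0.08 in WT, where neither was called.

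**Figure D4:**
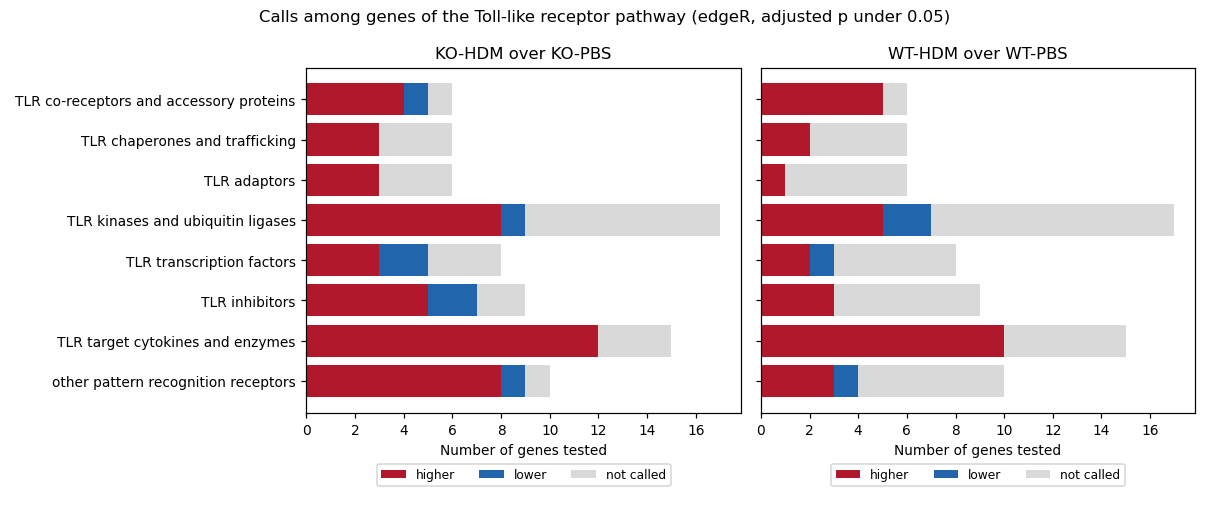
Number of genes of each list called higher, called lower and not called for HDM over saline, with KO-HDM over KO-PBS on the left and WT-HDM over WT-PBS on the right. The target list has the most calls, 12 of 15 in libraries labelled KO and 10 of 15 in WT, all higher.

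Under HDM, libraries labelled KO were higher than WT for Ticam2 (log2 fold change 0.58, edgeR adjusted p = 0.0168), Tirap (0.23), Hsp90b1 (0.42), Irak3 (0.48), Tnip1 (0.52), Saa3 (2.17), Clec4n (1.19) and Clec4e (1.59), and lower for Il1rl1 (-0.81), the interleukin-33 receptor. These are all the calls of the pathway lists in that comparison, beside the 3 receptors. Under saline, no gene of these lists was called between the labels.

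Genes with the most similar pattern were found by Pearson correlation of log2 CPM over the 20 libraries, which share group differences, so r is a description; r of the deviations from the 4 group means follows it. Tlr1 was most like Prkcb (r = 0.983, deviations 0.963), Dock11 and Apobec3. Tlr9 was most like Map4k1 (0.966, deviations 0.932), Runx3 and Cd72, the last a B cell receptor. Tlr2 was most like Sirpa (0.985, deviations 0.904), a receptor of myeloid cells, then Cd44 and Litaf. Tlr7 was most like Cbfb (0.978, deviations 0.818), Cybb, the phagocyte oxidase subunit, and AI504432.

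Tlr8 was most like Clec4a3 (r = 0.975, deviations 0.873), a lectin receptor of myeloid cells, then Tmem170b and Exoc5, and Tlr4 most like Katnbl1 (0.985, deviations 0.923), Exoc5 and Dek. Tlr13 was most like Snap23 (0.973, deviations 0.882), Atp6ap2 and Ggh, and Tlr6 most like Cd274 (0.957, deviations 0.789). Tlr3 was most like Atp7a (0.924, deviations 0.919), Atxn1 and Trove2. Tlr5 was most like Synm (0.967, deviations 0.745), an intermediate filament protein, Zfp438 and Sh3rf2. Between receptors, r of deviations from the group means was highest for Tlr1 with Tlr9 (0.858) and Tlr7 with Tlr13 (0.852). Next came Tlr3 with Tlr8 (0.825), Tlr2 with Tlr13 (0.814) and Tlr4 with Tlr8 (0.78), as a description over the 20 libraries. The lowest r was -0.51, for Tlr8 with Tlr9.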

How the data were processed

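Per the labels' protocols, RNA was selected with oligo-dT beads and made into strand-specific libraries; the same text mentions ribosomal RNA depletion. Bowtie2 2.1.0 and RSEM 1.2.15 were used, per the submitters' processing notes, which give the human build hg38; the gene symbols are those of mouse, so the authors' build is unclear. The authors deposited expected counts per gene, without normalization; a read matching more than 1 gene is divided by RSEM. Counts were rounded, filtered with edgeR's filterByExpr, scaled with TMM and fitted by the robust quasi-likelihood test of edgeR 4.0.16 in R 4.3.3 with all 20 libraries (16 residual degrees of freedom). P-values were adjusted over 16193 genes within each of 5 comparisons. Standard errors were derived from the log2 fold change and the F statistic of the test. Intervals of 95% are for the log2 fold change, use that standard error with 16 degrees of freedom and are not adjusted over genes. They rest on the variation between these libraries. Rn45s took 1.21% to 6.08% of counts. Correlations used log2 CPM with a prior count of 2. The fit was tested on simulated counts. Sequences came from GENCODE vM21 and RefSeq.

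The 10 receptors and the gene lists were chosen with earlier results of these data known. Named are all receptors, Alox15, up to 4 called genes of each list with the smallest adjusted p, any gene of a list of 6 or fewer, and the 3 genes most like each receptor; not all that qualify are printed, and Il1b was chosen after its values were seen. Alternatives were other scaling, other filters, DESeq2 1.42.0, limma 3.58.1 voom, a replicate block, only the 10 libraries of a comparison, leaving out libraries and a non-robust fit. Chosen after seeing the data were Tlr1 and Tlr6 as 1 feature and fits without Rn45s or without 3 libraries. These 3 were WT-PBS replicates 2 and 4 and WT-HDM replicate 2.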

Additional observations from a re-analysis of the deposited data

Results flagged for a closer look

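In 3 of the 40 combinations of receptor and group, 1 library lay far from the other 4, where chance gives about 1 in 20; the distance was judged on log2 CPM. On that scale Tlr1 in WT-PBS replicate 4 (28.9 CPM, next 12.6 CPM) was not among them. Tlr1 was at 10.15 CPM in WT-HDM replicate 5, below 23.3 to 28.55 CPM in the other WT-HDM libraries. Tlr9 was at 34.28 CPM in WT-PBS replicate 4, above 9.755 to 13.61 CPM in the other WT-PBS libraries. Tlr4 was at 54.39 CPM in WT-PBS replicate 1, above 31.24 to 34.2 CPM in the others. The B cell marker sum was 182 CPM in WT-HDM replicate 5 and 613 CPM in WT-PBS replicate 4. The adipocyte marker sum was 17.9 CPM in WT-HDM replicate 5 and 425 CPM in WT-PBS replicate 4. The part of either in these receptor values was not tested.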

How the results depend on the processing

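The number of receptors called moved under some alternatives. For labelled KO against WT under HDM it was 5 with DESeq2 and 5 with limma voom, and 1 to 5 without single libraries, lowest without KO-HDM replicate 4. For the interaction it was 1, Tlr2, with library totals and no scaling factor, with DESeq2 and without the 5 libraries with Adipoq at 50 CPM or more, and 0 to 1 without single libraries. It stayed at 6 to 9 for HDM in WT, 9 in labelled KO and 0 under saline without single libraries. Directions reversed only for receptors whose value in the main fit was near 0 and not called, and no reversed value was called. For labelled KO against WT under saline, Tlr6 was -0.020 with no scaling factor and Tlr2 was -0.056 without the Adipoq libraries. Tlr2 was -0.063 without the 3 chosen libraries (WT-PBS replicates 2 and 4 and WT-HDM replicate 2). Without single libraries Tlr2 spanned -4.04e-05 to 0.15, Tlr6 -0.081 to 0.12 and Tlr3 -0.13 to 0.081. Under HDM, Tlr9 was 0.016 with limma voom, 0.33 without the Adipoq libraries and 0.079 without the 3 libraries, and Tlr1 was 0.24 without the Adipoq libraries; without single libraries they spanned -0.21 to 0.076 for Tlr9 and -0.28 to 0.013 for Tlr1. The cause was not tested.

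Tlr6 for HDM in WT was lost with the 10 libraries alone (0.53, adjusted p = 0.0772), without the Adipoq libraries (0.42, 0.217) and without the 3 libraries (0.42, 0.162), and Tlr13 under HDM with the 10 libraries alone (0.74, 0.0545). Tlr3 for HDM in labelled KO was called without the Adipoq libraries (0.30, 0.0413). For HDM in WT, Tlr9 was called without the Adipoq libraries (0.76, 0.0321) and without the 3 libraries (0.96, 0.0099). Tlr1 for HDM in WT was also called without the 3 libraries (1.21, 0.0243), where Tlr2 was lost (0.54, 0.0694). Over all genes, 2854 were called for HDM in WT with the 10 libraries alone, against 4866. Under saline DESeq2 called 327, against 147. For the interaction, against 200, DESeq2 called 608 and no scaling factor 322, with 103 without the Adipoq libraries, 88 without the 3 libraries and 79 to 260 without single libraries. Under HDM, labelled KO against WT gave 576 to 1396 without single libraries, against 1080.

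Same-numbered libraries were not taken as pairs, since in no comparison did every pair's correlation of deviations from the group means pass 0.1. These correlations ran from 0.00396 to 0.506 for HDM in WT, -0.105 to 0.312 for HDM in labelled KO, -0.0128 to 0.478 for the labels under saline and -0.429 to 0.106 for the labels under HDM. In these comparisons 1, 2, 3 and 0 of the 5 HDM or labelled KO libraries correlated best with the library of their own number. With the replicate block 9, 9, 0, 3 and 0 receptors were called for HDM in WT, HDM in labelled KO, the labels under saline, the labels under HDM and the interaction. The 2 added in WT were Tlr1 (0.93, adjusted p = 0.00597) and Tlr9 (0.67, 0.0325).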
